A study of Homo sapiens with 6 samples.

Results

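The tetraspanin family in J82 cells, an established human bladder cancer line, was examined in RNA-seq of 6 libraries. Members were the protein-coding rows whose symbol is TSPAN followed by digits, together with CD9, CD37, CD53, CD63, CD81, CD82, CD151, PRPH2 and ROM1, and the partner genes IGSF8 and PTGFRN. The rule found 33 genes, 31 tetraspanins and 2 partners, among the 57820 rows of the count table. The control group held 3 libraries of J82 cells labelled as control, which per the study's methods carried the vector alone, and the FOXC1 KO group held 3 libraries of J82 cells in which FOXC1, a forkhead transcription factor, had been targeted with LentiCRISPRv2 and a single guide. The methods describe puromycin selection and speak of knockout clones, without saying how many clones the 3 knockout libraries came from. All cells grew in DMEM with serum and without further treatment. The comparison asks how family transcripts differ when FOXC1 is targeted. No label says that the libraries of a group came from separate cultures, so the p-values measure the spread between these libraries, which may be technical.

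Tetraspanins are small membrane proteins with a short and a long extracellular loop, and they gather integrins, immunoglobulin-domain proteins, proteases and each other into membrane patches called tetraspanin-enriched microdomains. Through these contacts they affect adhesion, the traffic and maturation of their partners, and the loading of extracellular vesicles. In the urothelium, the lining of the bladder, a pair of divergent tetraspanins, the uroplakins UPK1A and UPK1B, build the apical plaques of the surface cells.

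The libraries held 18408134 to 25350908 counts, and libraries of the same group correlated at 0.996 or above in log2 CPM across genes. FOXC1 itself had 412 to 490 counts in control, and the libraries labelled FOXC1 KO had 443 to 560. In CPM, the usual depth-scaled unit of counts, here on TMM-scaled library sizes, the control level was 18.2 ± 1.21 (SD, n = 3) and the KO level 22.5 ± 1.495, with 0.30 as the log2 fold change (SE 0.091, edgeR adjusted p = 0.0127). This value without control replicate 2 was 0.25 with an adjusted p of 0.0827 and without KO replicate 1 was 0.25 with an adjusted p of 0.0784. The transcript was thus not lower in the targeted cells, and since a small insertion or deletion need not lower a transcript, it does not check the labels. Per the study's methods, knockout clones had been checked at the protein level by Western blot, and the study reports less FOXC1 protein in J82 knockout cells. The blot was not analysed here, and the study does not say that the same cells gave these libraries. Directions are therefore given as those of the libraries labelled FOXC1 KO. KRT8, KRT18, KRT19 and EPCAM, 4 of the 6 epithelial markers examined, were called lower in these libraries, with a summed level of 3020 to 3840 CPM in control and 2370 to 2650 CPM in KO, and GATA3 and PPARG, 2 of the 7 luminal urothelial markers, were lower too, their list summing to 158 to 161 CPM and 116 to 119 CPM. UPK1A, UPK1B, UPK3A and KRT20 of that list were at 3 counts or fewer in every library. Of 4 mesenchymal markers ZEB1 was called higher, with sums of 1690 to 1830 CPM and 1720 to 1980 CPM. Of 4 basal markers none was called, with sums of 1790 to 2010 CPM and 2320 to 2600 CPM. These basal sums were nearly all CD44, at 1904 CPM in control and 2436 CPM in KO. CD44 changed less than 1.3-fold (log2 fold change 0.36, edgeR adjusted p = 0.000512). KRT5 and KRT14 had at most 1 count in any library. TP63 had 1 count in each control library and 4 to 9 in KO. Of 7 leukocyte markers 3 were at 0 and CD14 was called higher, with sums of 3.36 to 4.28 CPM and 5.31 to 6.20 CPM, and of 2 endothelial markers CDH5 was called higher, with sums of 0.134 to 0.275 CPM and 0.991 to 1.3 CPM. PECAM1, also planned as an endothelial marker, was not matched to a row and was not examined. The 4 photoreceptor markers were at 3 counts or fewer in every library. The part of these differences in the results below was not tested, and in bulk RNA fewer cells of a type and less RNA per cell cannot be told apart.

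A gene was called where its adjusted p was under 0.05 and its fold change over 1.3. Of 15647 genes tested, 16.0% were called, 8.39% lower and 7.57% higher in KO. Of the 33 members, 25 had enough counts to be tested, and 8 of them (32.0%) were called, with 5 lower (TSPAN8, CD9, PTGFRN, TSPAN11 and TSPAN4) and 3 higher (TSPAN14, CD82 and TSPAN15). The median log2 fold change of the tested members was -0.057, against -0.00084 over all genes tested, and in DESeq2, which took in all 33 members, it was 0.0011. The median size of the change was 0.21 against 0.18. By the adjusted p alone, 11 members passed, CD63, TSPAN6 and IGSF8 in addition, where 29.4% of all genes did. The control and KO libraries did not overlap for 10 tested members (40.0%), 6 lower and 4 higher, where 41.3% of all genes tested did not overlap. The family therefore held changes in both directions, and the largest was that of TSPAN8.

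**Figure D1:**
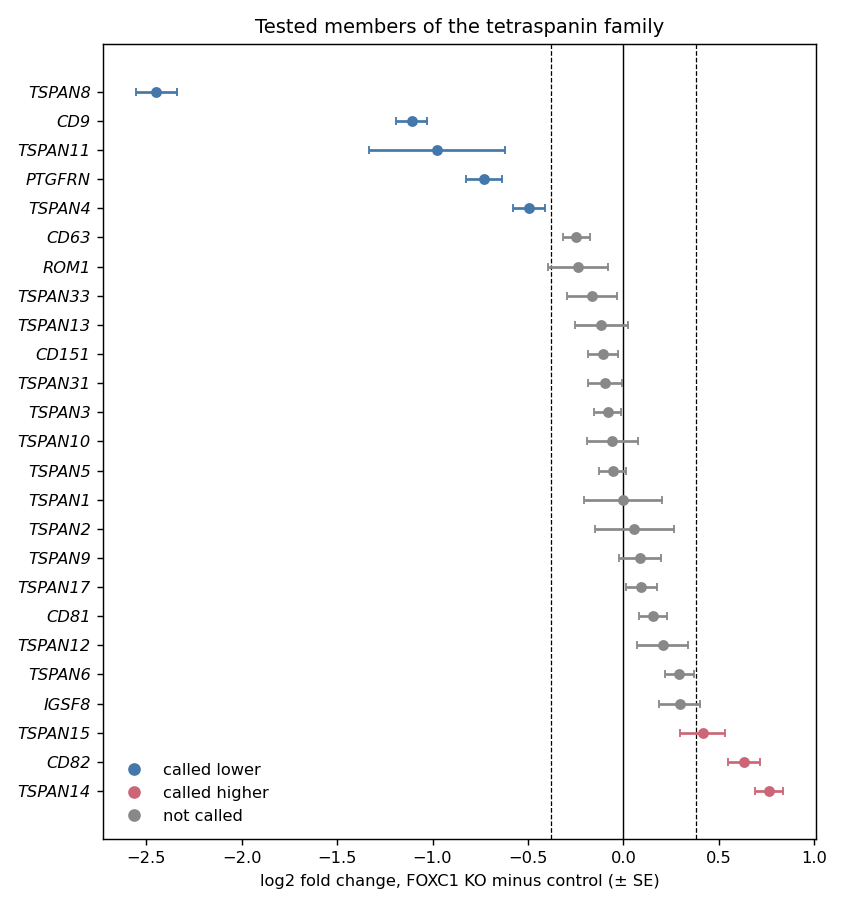
Log2 fold change (FOXC1 KO minus control) of the 25 tested members with its standard error as a bar, coloured by call, the dashed lines marking a 1.3-fold change. TSPAN8 stands lowest at -2.45, CD9 follows at -1.11, and TSPAN14 and CD82 stand highest at 0.76 and 0.63.

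The stretch before the start site is shown for the 3 called members whose first start site listed by RefSeq (GRCh38.p14) has no annotated exon in the 250 bases before it, so that a reader can see the DNA upstream of a gene that fell strongly, a partner that fell and a member that rose. Each is given 5′ to 3′ on the gene's strand, at chr12:71158000-71158249 (minus strand) for TSPAN8, chr1:116909666-116909915 (plus strand) for PTGFRN and chr10:69451215-69451464 (plus strand) for TSPAN15. Capitals mark TGTTTAC, the reverse complement of the forkhead core motif GTAAACA, which lay 53 to 47 bases before the TSPAN8 start. In GRCh37 that TSPAN8 stretch lies at 71551780 to 71552029, inside the annotated gene, which runs from 71518865 to 71835678 on the minus strand. Which start J82 cells use was not examined.
TSPAN8: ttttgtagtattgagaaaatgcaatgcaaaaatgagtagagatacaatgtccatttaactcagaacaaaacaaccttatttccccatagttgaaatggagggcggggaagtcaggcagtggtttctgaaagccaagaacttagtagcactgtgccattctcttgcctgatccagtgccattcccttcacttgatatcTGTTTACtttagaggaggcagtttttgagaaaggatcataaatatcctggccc
PTGFRN: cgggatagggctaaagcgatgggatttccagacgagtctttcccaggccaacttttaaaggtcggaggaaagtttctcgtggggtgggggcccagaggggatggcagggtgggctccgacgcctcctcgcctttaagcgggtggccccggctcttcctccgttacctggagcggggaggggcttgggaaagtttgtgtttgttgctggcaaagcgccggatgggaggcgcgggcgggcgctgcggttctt
TSPAN15: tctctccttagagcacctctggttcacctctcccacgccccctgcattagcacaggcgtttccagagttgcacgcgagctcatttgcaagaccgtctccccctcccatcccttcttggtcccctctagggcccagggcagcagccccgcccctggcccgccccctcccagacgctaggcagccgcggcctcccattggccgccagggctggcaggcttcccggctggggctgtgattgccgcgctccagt
The motif GTAAACA was searched on both strands in 300-base windows, 250 bases before to 50 after each listed start, and 1202 of 35116 windows (3.42%) held it. Windows were listed for 25 members, among them the 8 called ones, 45 windows in all. The motif was in 3 of them, those of both TSPAN8 starts, which share the same copy, and that of the fourth of 5 TSPAN4 starts, 105 to 99 bases upstream. The related motif GTAAATA, held by 939 windows (2.67%), was in 0 member windows. A match describes the letters only.

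Of the 5 members of endosomes and vesicles, all tested, 1 was called, TSPAN8, lower in KO. That is 20.0%, near the 16.0% called over all genes tested. Each member was placed in 1 group, so this share depends on the placement. CD9 and TSPAN4 (called lower), CD82 (called higher) and CD81 (not called) were counted with the integrin group below. TSPAN8 (ENSG00000127324, chromosome 12, 71518865 to 71835678 of GRCh37, minus strand), a tetraspanin of epithelial and carcinoma cells carried on exosomes, had 26.8, 32.2 and 28.5 CPM in the control libraries and 4.89, 5.39 and 5.69 CPM in the KO libraries. Every control library was far above every KO library, with no overlap. TSPAN8 fell 5.45-fold, between means of 29.2 ± 2.74 and 5.33 ± 0.406 CPM (SD, n = 3 each), or -2.45 on the log2 scale (SE 0.11, edgeR adjusted p = 1.1e-16). These values rested on 602 to 786 counts in control and 90 to 136 counts in KO. CD63 (chromosome 12, 56119107 to 56123491), a tetraspanin of late endosomes that is widely used as an exosome marker, had 912, 847 and 843 CPM in control and 692, 776 and 724 CPM in KO. The groups lay apart, but by a smaller factor. CD63 passed the adjusted p and not the fold threshold, at 868 ± 38.8 and 731 ± 42.5 CPM (log2 fold change -0.25, SE 0.071, adjusted p = 0.00864). TSPAN6, which takes part in the endosomal sorting of membrane cargo, had 50.03 to 56.7 CPM in control and 61.7 to 69.6 CPM in KO, again apart and under the fold threshold (0.29, SE 0.077, adjusted p = 0.00465). TSPAN3 (log2 fold change -0.083) and TSPAN1 (-0.0020) did not pass, with adjusted p of 0.39 and 0.995.

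**Figure D2:**
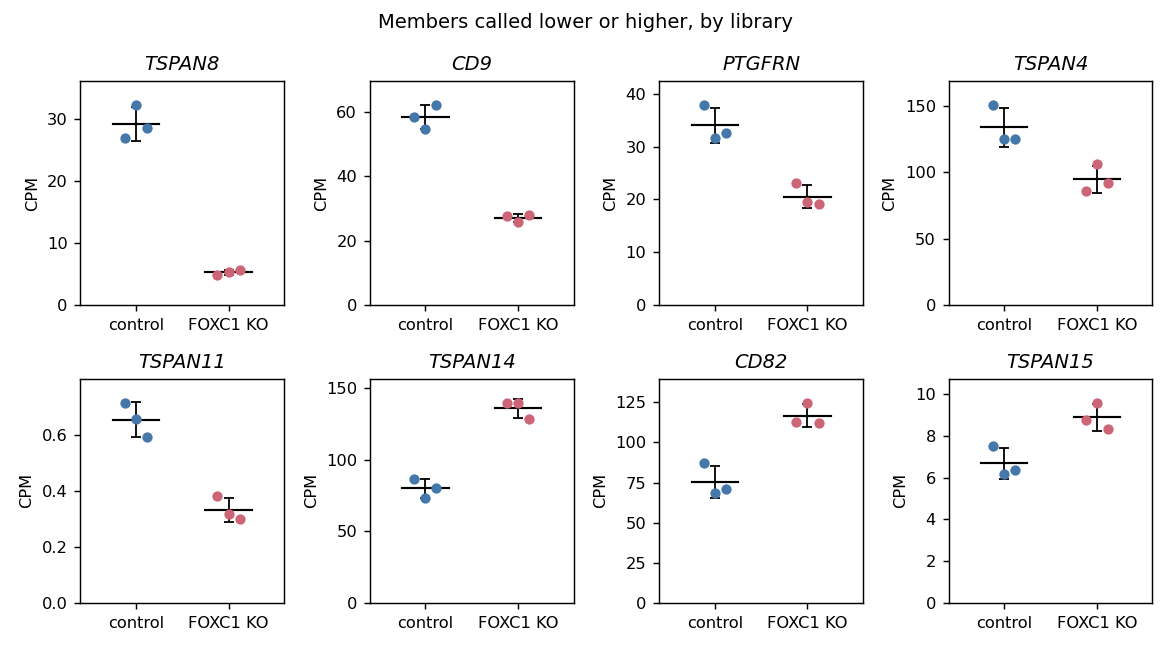
Levels in CPM of the 8 called members in each of the 6 libraries, 1 panel per gene from 0, points for libraries, long lines for group means and whiskers for the SD. The control and FOXC1 KO points do not overlap in any panel, but these members are shown because they were called. Of all genes tested, 41.3% did not overlap. TSPAN8 falls from about 29.2 to 5.33 CPM while TSPAN14 rises from 79.9 to 135.7 CPM.

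Of the 6 tetraspanins grouped here under the web of integrins and EWI immunoglobulin proteins, CD9 and TSPAN4 fell, CD82 rose, and CD81, CD151 and TSPAN9 were not called. That is 33.3% lower and 16.7% higher, on few genes, where 8.39% and 7.57% of all genes tested were called. CD9 (chromosome 12, 6308881 to 6347437), which links integrins, EWI proteins and membrane-bound growth factors, had 58.6, 54.7 and 62.2 CPM in control and 27.7, 25.8 and 27.9 CPM in KO. Each KO library held less than any control library, within a narrow range. CD9 fell 2.16-fold, from 58.5 ± 3.74 to 27.1 ± 1.16 CPM (-1.11, SE 0.081, adjusted p = 8.68e-12). CD82 (chromosome 11, 44585977 to 44641908), also known as KAI1 and studied as a suppressor of metastasis, had 86.9, 68.4 and 70.8 CPM in control and 113.0, 124.7 and 111.9 CPM in KO. Here each KO library was above each control library. CD82 rose 1.55-fold, from 75.4 ± 10.1 to 117 ± 7.09 CPM (0.63, SE 0.082, adjusted p = 7.11e-07).

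TSPAN4 (chromosome 11, 842812 to 867116), which marks migrasomes, the vesicles on retraction fibres of migrating cells, had 150.7, 125.4 and 125.5 CPM in control and 86.1, 106.2 and 92.3 CPM in KO. The groups did not overlap. TSPAN4 fell 1.41-fold, from 134 ± 14.5 to 94.9 ± 10.3 CPM (-0.49, SE 0.083, adjusted p = 3.24e-05). CD151 (chromosome 11, 832887 to 839831), the main partner of laminin-binding integrins, ends 2980 bases before TSPAN4 on the same chromosome. It had 316, 266 and 270.3 CPM in control and 234.5, 295.5 and 261.5 CPM in KO, groups that overlapped, and was not called (-0.11, SE 0.081, adjusted p = 0.348). The ratio of TSPAN4 to CD151 counts was 0.464 to 0.477 in the control libraries and 0.353 to 0.367 in the KO libraries. CD81, a partner of the EWI proteins, had 150.3 to 177 CPM in control and 172 to 188 CPM in KO, which overlapped (0.15, SE 0.074, adjusted p = 0.118). TSPAN9 was not called either (0.088, adjusted p = 0.598). CD9 and CD81 are the closest relatives in this set that share EWI partners, and the ratio of CD9 to CD81 counts was 0.331 to 0.414 in control and 0.137 to 0.161 in KO. The ratio of CD82 to CD9 counts was 1.14 to 1.48 in control and 4.01 to 4.83 in KO. These ratios describe the libraries and compare counts without regard to gene length. Their directions followed from the fold changes given above and add no support.

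The EWI partner genes differed from each other. PTGFRN (chromosome 1, 117452538 to 117532975), also called CD9P-1 or EWI-F, binds CD9 and CD81 and had 37.8, 31.6 and 32.5 CPM in control and 23.0, 19.4 and 19.1 CPM in KO. All KO libraries were below all control libraries. PTGFRN fell 1.66-fold, from 34.0 ± 3.37 to 20.5 ± 2.18 CPM (-0.73, SE 0.094, adjusted p = 5.05e-07). IGSF8, or EWI-2, had 20.3, 15.7 and 14.8 CPM in control and 19.6, 22.9 and 19.5 CPM in KO. Control replicate 1 lay within the KO range, so the groups overlapped. IGSF8 passed the adjusted p but not the fold threshold (0.30, SE 0.11, adjusted p = 0.0363), and without control replicate 1 it was called higher, at 0.44 with an adjusted p of 0.000517. The ratio of PTGFRN to IGSF8 counts was 1.87 to 2.20 in control and 0.849 to 1.18 in KO, a direction that followed from these fold changes and adds no support.

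The 6 TspanC8 tetraspanins, which bind the sheddase ADAM10 and take it from the endoplasmic reticulum to the surface, were all tested, and 2 were called higher and 0 lower, where 7.57% of all genes were called higher and 8.39% lower. TSPAN14 (chromosome 10, 82214021 to 82292880) had 86.5, 73.5 and 79.9 CPM in control and 139.3, 139.6 and 128 CPM in KO. The groups lay well apart. TSPAN14 rose 1.70-fold, from 79.9 ± 6.49 to 135.7 ± 6.45 CPM (0.76, SE 0.075, adjusted p = 3.65e-09). TSPAN15 (chromosome 10, 71211221 to 71267422) had 7.53, 6.18 and 6.37 CPM in control and 8.75, 9.59 and 8.33 CPM in KO. It rose 1.33-fold, just past the threshold (0.41, SE 0.12, adjusted p = 0.00794), and was not called without control replicate 2, at 0.36 (adjusted p = 0.0469), or without KO replicate 2, at 0.35 (adjusted p = 0.053). TSPAN5 (-0.057, adjusted p = 0.601), TSPAN17 (0.095, 0.41), TSPAN33 (-0.16, 0.376) and TSPAN10 (-0.057, 0.786) were not called, these 4 pairs being the log2 fold change and the adjusted p. ADAM10 itself had 112 to 122 CPM in control and 106 to 126 CPM in KO and was not called (-0.025, SE 0.075, adjusted p = 0.835).

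Shares within the TspanC8 group were compared by length. The level per length, CPM per kilobase of merged exons, was summed over the 6 genes, and TSPAN14 held 15.0%, 14.4% and 15.0% of the sum in the control libraries and 22.75%, 21.8% and 22.3% in the KO libraries. This was 14.8 ± 0.366% in control and 22.3 ± 0.486% in KO (SD, n = 3). TSPAN5 held 33.0 ± 1.70% and 28.0 ± 1.09%, TSPAN17 33.5 ± 1.07% and 31.6 ± 0.466%, and TSPAN15 8.32 ± 0.406% and 9.78 ± 0.234%. The size of the TSPAN14 share depended on which length was used, since its merged exons are 17790 bases and its canonical transcript 5547 bases, and by the canonical transcript the share was 21.4% in control and 31.1% in KO. The TSPAN14 share was higher in KO by each length. Lengths are the same in every library and TSPAN14 rose most of the 6 genes, so this direction was fixed beforehand and adds no support. A share rises or falls with the other genes of the sum, so it is no test of its own.

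**Figure D3:**
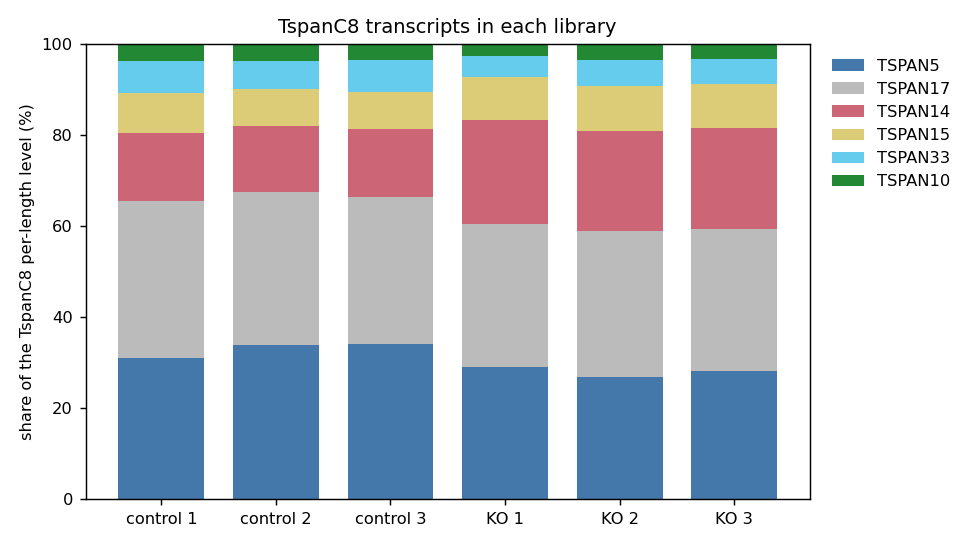
Share (%) of the summed TspanC8 level, in CPM per kilobase of merged exons, held by each of the 6 genes in each library. TSPAN14 takes 14.4 to 15.0% in the control libraries and 21.8 to 22.75% in the FOXC1 KO libraries, and TSPAN5 and TSPAN17 hold the largest shares.

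Among the members with other or less studied roles, TSPAN11 was called lower at a low level, with 0.713, 0.655 and 0.590 CPM in control and 0.380, 0.317 and 0.297 CPM in KO, from 15 to 16 counts and 7 to 8 counts per library. Its groups were apart, and the fold change was -0.98 (log2, SE 0.35, adjusted p = 0.0374). The call was lost in DESeq2, with an adjusted p of 0.222, with no filter on low counts, with 0.0867, and whenever any single library was left out, with adjusted p of 0.0536 to 0.116. TSPAN12, which joins the Norrin receptor FZD4 (0.21, adjusted p = 0.262), TSPAN31 (-0.096, 0.451), TSPAN13 (-0.12, 0.584) and TSPAN2 (0.057, 0.869) were not called, with log2 fold change and adjusted p in that order. TSPAN31 shares 1369 exon bases with CDK4 on the opposite strand, 26.1% of its exons, and CDK4 was lower in KO (295 and 214 CPM, log2 fold change -0.46, adjusted p = 9.76e-06), so without the strand setting its counts are uncertain. ROM1, a photoreceptor tetraspanin, shares 30.1% of its exons with EML3 and was not called (-0.24, adjusted p = 0.279). CD151 shares 257 exon bases, 6.6% of its exons, with POLR2L on the opposite strand, which was lower in KO (149 and 110.1 CPM, log2 fold change -0.43, adjusted p = 8.85e-05), so its counts and the TSPAN4 to CD151 ratio are uncertain to that extent. CD63 shares 120 exon bases, 4.95% of its exons, with CD63-AS1, also lower in KO (5.26 and 3.53 CPM, log2 fold change -0.56, adjusted p = 0.00375). CD82 and TSPAN14 each overlap an antisense gene, listed at 0.014 or fewer CPM on average.

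The 8 members that could not be tested include the leukocyte tetraspanins CD37, CD53 and TSPAN32. CD53 had 1 to 4 counts in each library, CD37 at most 2, and TSPAN32 at most 2, which are at or near the floor of 3 counts. The photoreceptor gene PRPH2 had 0 counts in each control library and 1 in each KO library. TSPAN7, TSPAN16 and TSPAN18 had at most 2 counts in any library, and TSPAN19 had 8 in each control library and 4 to 9 in KO. No fold is given for these members from the main edgeR fit. The medians from DESeq2 and from the fit with no filter on low counts do include them, with 33 members each. UPK1A and UPK1B, tetraspanins of the bladder lining outside the naming rule, had at most 1 count in any library.

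Levels per length set the 23 tested tetraspanins beside each other. CD63 was highest in both groups, at 358 ± 16.02 CPM per kilobase in control and 302 ± 17.6 in KO (SD, n = 3). It held 60.7 ± 0.560% of the summed level of all 31 tetraspanins, untested ones included, in control and 57.5 ± 0.227% in KO. CD151 came next, at 73.0 ± 7.12 and 67.8, which lie within 1 SD of each other. Behind it came TSPAN4 (22.9 ± 2.49), CD81 (20.0 ± 1.89) and CD82 (18.7 ± 2.49) in control, where the libraries of TSPAN4 and CD81 overlapped and CD81 and CD82 differed by less than 1 SD. This control order also depended on the length. By the canonical transcript CD81 ranked 3 in control at 107.8, TSPAN4 4 at 97.1 and CD82 6 at 34.1 CPM per kilobase. In KO CD82 ranked 3 at 28.9, ahead of CD81 at 22.3 and TSPAN4 at 16.3, an order that turned with the length used, since by the canonical transcript CD81 ranked 3 in KO at 119.9, TSPAN4 4 at 68.8 and CD82 5 at 52.7 CPM per kilobase. TSPAN8 ranked 7 among the 23 in control at 12.1 ± 1.13 and 15 in KO at 2.20 ± 0.168 CPM per kilobase, and CD9 went from rank 10 at 10.03 ± 0.641 to rank 12 at 4.66. TSPAN14 went from rank 13 at 4.49 to rank 10 at 7.63 CPM per kilobase. With the canonical transcript as the length, CD9 ranked 5 in control and 8 in KO, TSPAN14 11 and 6, and CD63 held 57.7% and 55.3%.

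**Figure D4:**
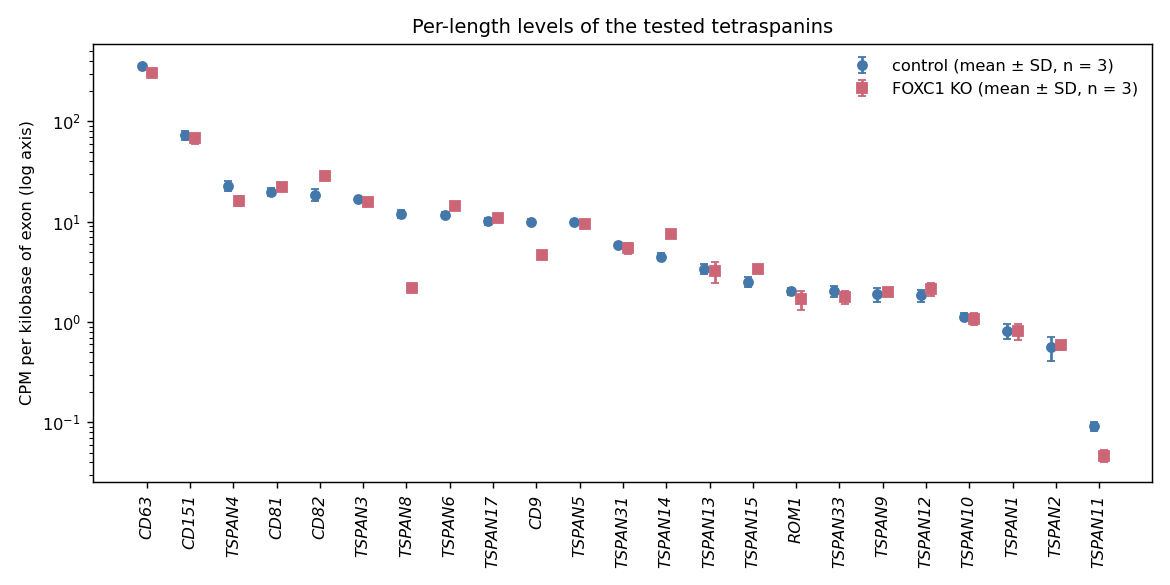
Level per length (CPM per kilobase of merged exons, log axis) of the 23 tested tetraspanins, with the control (circles) and FOXC1 KO (squares) means and their SD as bars (n = 3). CD63 lies above all others near 358 in control and 302 in KO, and TSPAN8 shows the widest gap between groups, 12.1 against 2.20.

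The partner and related genes were described in 8 lists of 74 genes, of which 60 were tested and 17 (28.3%) called, 9 lower and 8 higher, against 16.0% of all genes. Their median log2 fold change was -0.025. Of the 8 tested integrin subunits with which tetraspanins associate, 5 were called. ITGA1, a collagen receptor subunit, had 154, 152 and 158 CPM in control and 90.9, 86.0 and 98.2 CPM in KO, groups that lay apart. It fell from 155 ± 3.37 to 91.7 ± 6.14 CPM (log2 fold change -0.76, SE 0.071, adjusted p = 1.88e-09). ITGB4, the hemidesmosomal subunit, fell (-0.59, SE 0.12, adjusted p = 0.000266), and so did ITGA7 (-1.03, adjusted p = 0.0167), a laminin-binding subunit at 0.829 CPM in control and 0.406 CPM in KO that was lost in DESeq2 (adjusted p = 0.139), without control replicate 3 (0.0872) and without KO replicate 2 (0.09). ITGA5, the fibronectin receptor subunit (0.42, SE 0.083, adjusted p = 0.000288), and ITGB1, the common subunit at 950.1 ± 52.4 and 1253 ± 112 CPM (0.40, SE 0.076, adjusted p = 0.000168), rose just past the fold threshold. Leaving out single libraries took ITGA5 to 0.35 (without control replicate 2 or KO replicate 1) or 0.37 (without control replicate 3), and ITGB1 to 0.35 (without control replicate 1) or 0.36 (without KO replicate 1 or KO replicate 3), all under the fold threshold. ITGA3, the CD151 partner, was not called (-0.079, adjusted p = 0.523), and ITGA6 at 0.35 was under the fold threshold (adjusted p = 0.000804).

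Among 4 tested immunoglobulin-domain partners, ICAM1, an adhesion ligand for leukocytes, rose (0.67, SE 0.084, adjusted p = 3.79e-07) and VCAM1, the ligand of integrin alpha-4, fell (-0.68, SE 0.12, adjusted p = 8.6e-05). Of 11 tested ADAM sheddases and substrates, NOTCH1 fell (-0.63, SE 0.12, adjusted p = 0.000212), HBEGF, a growth factor precursor bound by CD9, rose (0.56, SE 0.094, adjusted p = 3.6e-05), and ADAM17 was not called (0.083, adjusted p = 0.446), which left 18.2% of the list called, near the 16.0% of all genes. HBEGF had 13.8, 12.9 and 13.8 CPM in control and 21.6, 19.4 and 18.8 CPM in KO, which did not overlap. All 21 genes of vesicle formation were tested, and 3 fell and 1 rose, a share of 19% called that is also near that of all genes. CHMP4C, an ESCRT-III subunit, fell from 11.1 ± 0.935 to 5.65 ± 0.408 CPM (-0.97, SE 0.12, adjusted p = 1.4e-07). SMPD3, a neutral sphingomyelinase (-0.83, SE 0.23, adjusted p = 0.00731; adjusted p = 0.074 in DESeq2), and RAB27B, which docks secretory vesicles (-0.42, SE 0.080, adjusted p = 0.00019), also fell, the latter to -0.36 and under the fold threshold without control replicate 2. SDC1, a heparan sulphate proteoglycan of the syndecan-syntenin route, rose from 119 ± 9.04 to 188 ± 11.95 CPM (0.66, SE 0.074, adjusted p = 4.2e-08), while its adaptor SDCBP was at -0.37, under the fold threshold (adjusted p = 0.00027).

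The Norrin receptor complex contributed the largest change of all lists. NDP, which encodes the ligand Norrin, had 1.03, 1.02 and 0.786 CPM in control and 6.74, 5.55 and 7.14 CPM in KO. Every KO library was well above every control library, at 20 to 25 counts against 124 to 168. NDP rose 6.82-fold (log2 fold change 2.77, SE 0.18, adjusted p = 6.99e-13), while its receptor FZD4 fell from 34.9 ± 2.82 to 26.4 ± 1.71 CPM (-0.41, SE 0.087, adjusted p = 0.000622). The FZD4 value was -0.36 without control replicate 3 and -0.37 without KO replicate 2, below the fold threshold. The co-receptors LRP5 (0.099, adjusted p = 0.47) and LRP6 (0.040, adjusted p = 0.739) were not called. Of the L6 membrane proteins, which resemble tetraspanins in topology but are not related to them by sequence, TM4SF1 rose from 13.4 ± 1.24 to 36.8 ± 1.73 CPM (1.46, SE 0.091, adjusted p = 2.95e-13), and the other tested gene was not called. Of the cytoplasmic linkers, moesin (MSN), which ties membrane proteins to actin, rose (0.41, SE 0.077, adjusted p = 0.000153), with 0.35, 0.37 and 0.38 without control replicate 2, control replicate 3 and KO replicate 2, under the fold threshold. EZR (0.052, adjusted p = 0.63) and RDX (-0.073, adjusted p = 0.502), the other ezrin-radixin-moesin genes, were not called. Only 1 of 5 uroplakin genes was tested and it was not called.

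**Figure D5:**
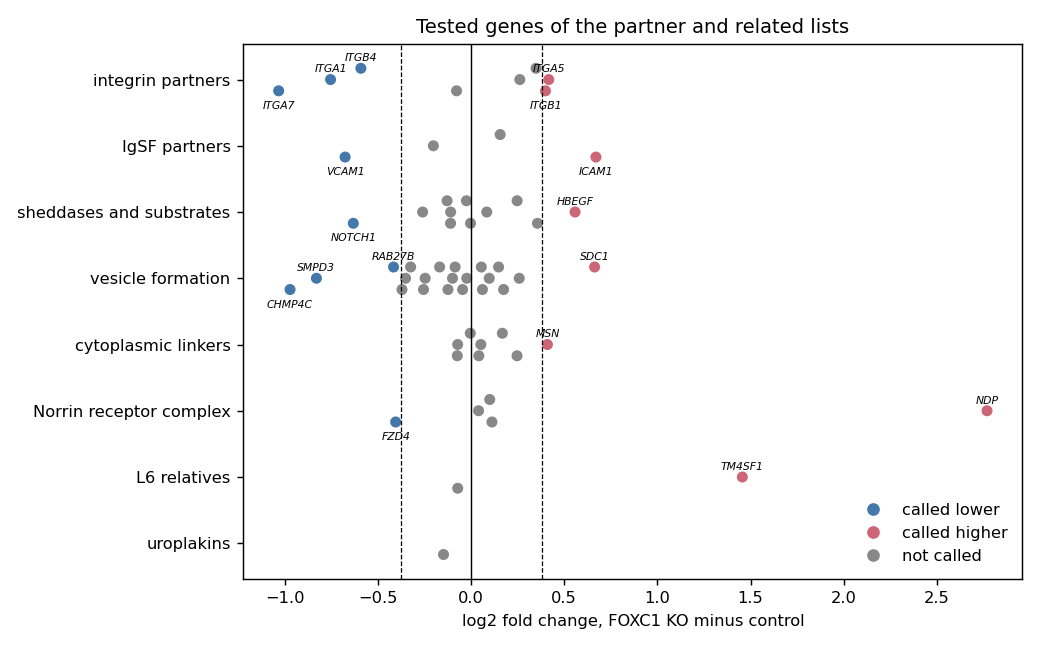
Log2 fold change (FOXC1 KO minus control) of the 60 tested genes of the 8 partner and related lists, each point a gene, coloured by call, the dashed lines marking a 1.3-fold change. NDP at 2.77 and TM4SF1 at 1.46 stand highest, and ITGA7 and CHMP4C stand lowest.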

How the data were processed

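RNA of J82 control and FOXC1 KO cells (3 libraries each, grouped by sample title) had been extracted, made into libraries with a KAPA mRNA kit and sequenced as paired 75-base reads. Per the study's methods and the submitters' processing notes, the authors aligned the reads to hg19 with STAR and counted reads per GENCODE gene with featureCounts of the Subread package, and deposited raw counts per gene without pooling. The versions of STAR and Subread and the strand setting were not given in the sources used here, so counts of overlapping and antisense genes are uncertain. The reads were not analysed here.

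Symbols, coordinates and exon lengths came from GENCODE annotation lifted to GRCh37, which matched 55538 of 57820 identifiers (96.05%). Its release is not the one the authors counted with. Counts were tested in R 4.3.3 with edgeR 4.0.16 (filterByExpr, TMM scaling, robust quasi-likelihood F test, Benjamini-Hochberg adjustment over all 15647 genes tested). Standard errors were derived from the F statistic. The code was tested on simulated data. Alternatives were DESeq2 1.42.0, other scalings and filters, no fold threshold, a replicate block, leaving out each library, and other gene lengths. An exact permutation test of 3 against 3 cannot go below p = 0.1. The genes named were FOXC1, every member, UPK1A, UPK1B and, in each list, at most 5 called genes by smallest p, beside markers from a list of cell type markers. CDK4, EML3, POLR2L, CD63-AS1 and the uncalled list genes ADAM10, ADAM17, ITGA3, ITGA6, SDCBP, LRP5, LRP6, EZR and RDX fall outside that rule and were chosen after their values were seen. Members and lists were chosen with earlier results of these data known. Promoter windows came from RefSeq.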

Additional observations from a re-analysis of the deposited data

How the results depend on the processing

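The family median was 0.0011 in DESeq2 and -0.084 to -0.0047 under the other scalings and filters and the replicate block. The family count of called members was 4 lower and 3 higher in DESeq2, and 4 to 5 lower and 3 higher under the other scalings, filters and the replicate block. Leaving out single libraries gave 4 lower in each fit and 2 to 4 higher. With no fold threshold it was 6 lower and 5 higher, the lists together gave 14 lower and 14 higher, and all genes 2233 lower and 2372 higher. TSPAN8 ranged from -2.51 to -2.37, CD9 from -1.16 to -1.06 and TSPAN14 from 0.70 to 0.815 (log2 fold change). Replicate numbers did not pair the libraries (correlations of deviations -0.040, -0.13 and 0.073), and with the replicate block 5 members were lower and 3 higher, the lists 9 and 8, and all genes 1351 and 1200.

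FOXC1 ranged from 0.25 to 0.35 when single libraries were left out. The CD63 share of the summed tetraspanin level was 63.5% (control) and 60.8% (KO) by the longest transcript and 57.7% and 55.3% by the canonical transcript, a length added after seeing the data, and the TSPAN14 share of the TspanC8 level was 11.2% and 17.4%, and 21.4% and 31.1%. Uncalled members near 0 changed sign: TSPAN1 was 0.0011 in DESeq2, 0.0035 with the replicate block and -0.092 to 0.14 without single libraries, where TSPAN10 ranged from -0.18 to 0.016, TSPAN13 from -0.295 to 0.038, TSPAN2 from -0.11 to 0.27 and TSPAN9 from -0.020 to 0.20. Counts of 8 members were too low to test in the main edgeR fit.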
